A study of Mus musculus with 28 samples.

Results

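Macrod1 and 9 other genes that add ADP-ribose to proteins or take it off were followed in liver and kidney of mice gavaged with nicotinamide mononucleotide (NMN), a precursor of NAD+. The set of 10 genes, among 54446 counted, was chosen by the low level of Macrod1 measured in the liver of NMN mice, and the other members are writers and erasers like it. The liver values of Macrod1 under NMN are therefore a description without a test. It holds 4 erasers (Macrod1, Macrod2, Parg and Adprh) and 6 genes of the writer family (Parp1, Parp2, Parp3, Parp9, Parp14 and Tiparp).

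All mice were males, 8 weeks old, gavaged for 7 days, of the strain given as C57BL/6 in the labels and as C57BL6J in the article. On the lower schedule, with 1 gavage per day, 4 mice received NMN at 1340 mg/kg/d and 4 received water, and on the higher schedule, with 2 gavages per day, 3 received NMN at 2680 mg/kg/d and 3 received water. The 2 schedules differ in dose and in number of gavages, which cannot be told apart here, and each schedule has water mice of its own. The libraries of the schedules also differ in their shares of reads. Mitochondrial genes took 8.92% to 10.6% of counts in the kidney at 1340 mg/kg/d and 19.8% to 21.6% at 2680 mg/kg/d (3.89% to 5.77% and 5.74% to 9.24% in the liver). Of kidney reads, 10.3% to 11.6% and 18.94% to 19.95% were not uniquely aligned (10.1% to 12.8% and 13.4% to 14.5% in the liver). Whether these differences come from the gavage, the animals or the handling of the libraries cannot be told apart here. PolyA-selected RNA of liver and of kidney gave 28 libraries with 12688324 to 16455228 counted reads in liver and 13174264 to 15696435 in kidney at 1340 mg/kg/d, and 17573184 to 20635269 and 16358886 to 33872983 at 2680 mg/kg/d. Levels are CPM, read counts scaled to the reads counted on genes and then between libraries, and a gene is called where the adjusted p over all tested genes of a comparison is under 0.05.

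ADP-ribosylation attaches ADP-ribose units from NAD+ to proteins and releases nicotinamide, so the writers are consumers of NAD+. PARP1 and PARP2 build chains of ADP-ribose at DNA breaks, most other writers attach single units, and erasers remove chains or the last unit bound to the protein. MACROD1 is a macrodomain hydrolase found largely in mitochondria that removes single ADP-ribose units from acidic residues and also splits O-acetyl-ADP-ribose, a product of sirtuins.

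Macrod1 (ENSMUSG00000036278.6) is the gene the values below turn on, so the sequence just before its transcription start is shown. It is the first of 2 start sites listed by RefSeq, on GRCm38.p6 at chr19:7056518-7056767, plus strand, 250 bases ending at the base before the start. Capitals mark matches to the motifs searched.
Macrod1 upstream: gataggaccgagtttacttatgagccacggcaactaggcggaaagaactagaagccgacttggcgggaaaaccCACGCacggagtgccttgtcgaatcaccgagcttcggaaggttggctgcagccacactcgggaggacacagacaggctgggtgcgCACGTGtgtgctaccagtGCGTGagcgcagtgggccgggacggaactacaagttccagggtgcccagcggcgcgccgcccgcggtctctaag

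This stretch had 62% G and C and 23 CpG dinucleotides, against medians of 52.4% and 6 over 32851 RefSeq promoters, and 86.7% of those promoters had fewer CpG. Motifs were searched on both strands in the 300 bases from 250 before to 50 after the start of each promoter. For Macrod1 the matches given are those at the first start only. CACGTG, the E-box bound among others by the clock factors CLOCK and BMAL1, was found 1 time, at position -92, and was held by 7.15% of all promoters. GCGTG, the core of the element bound by the aryl hydrocarbon receptor, was found 3 times, of which 2 lie in the printed stretch (1 on each strand), and 32.4% of promoters held it. No match was found to TGACGTCA (the cAMP response element, held by 1.79% of promoters), TTCNNNGAA (the STAT element, 8.3%), TGTTCT (a steroid receptor element's core, 19%), CCAAT (the CCAAT box, 37.4%) or TATAAA (the TATA box, 13.6%). These matches describe letters only, and no binding was measured.

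In the liver, Macrod1 was 10.7 times lower in NMN mice than in water mice on the 2680 mg/kg/d schedule, while on the 1340 mg/kg/d schedule the groups overlapped. At 2680 mg/kg/d the water mice had 92.4, 114.4 and 83.7 CPM and the NMN mice 8.99, 10.5 and 7.56 CPM. All 3 NMN mice lay far below every water mouse, and the water libraries held 1018 to 1561 counts where the NMN libraries held 102 to 148. The log2 fold change was -3.42 (SE 0.19). At 1340 mg/kg/d the water mice had 72.8, 76.4, 58.3 and 77.9 CPM and the NMN mice 84.0, 63.8, 50.4 and 41.8 CPM. The highest value was in an NMN mouse, and the log2 fold change was -0.25 (SE 0.19). The lowest of these livers, NMN replicate 4, also had the highest share of reads on no annotated gene (12.8%, against 4.91% to 7.44% in the other 7). Its summed hepatocyte markers were also the lowest (102200 CPM). Without it the log2 fold change was -0.12, and leaving out each library in turn gave -0.44 to -0.12.

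**Figure D1:**
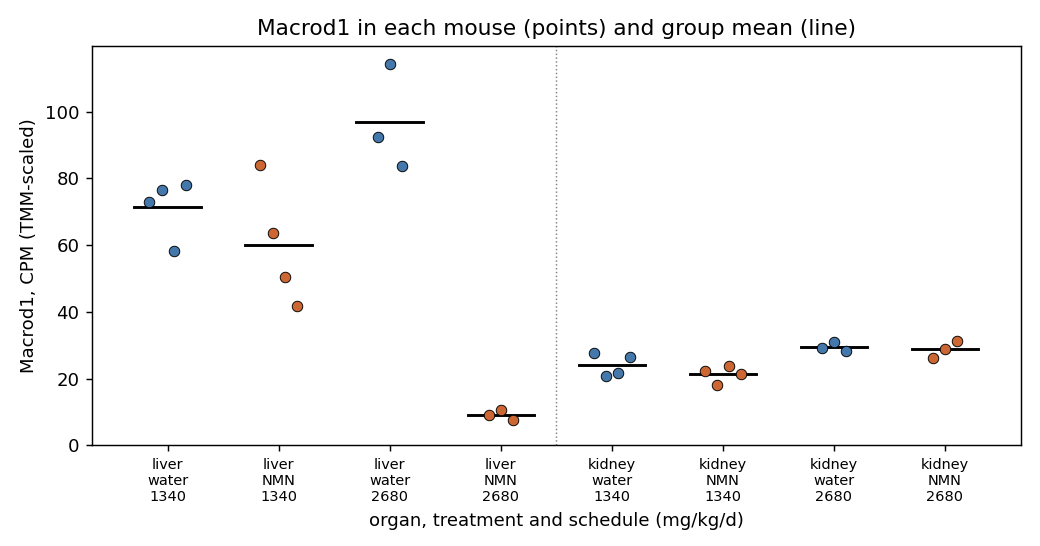
Macrod1 in CPM (linear axis from 0) for each of the 28 libraries, with the mean of each group as a line, water in blue and NMN in orange. The 3 liver NMN mice at 2680 mg/kg/d lie between 7.56 and 10.5 CPM, below every other liver mouse and also below every kidney library, the lowest of which has 18.1 CPM.

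Among 12477 genes tested in the liver at 2680 mg/kg/d, the log2 fold change of Macrod1 ranked 16th from the lowest. Only 5 genes with at least 10 CPM in the water mice had a lower one. They were Cyp2c40 (-5.29), Hdhd3 (-3.77), Saa2 (-3.66), Thrsp (-3.56) and Slc22a28 (-3.43), named after their values were seen. On the lower schedule Macrod1 ranked 2137th of 12449 genes. Fewer cells of a type and less RNA per cell cannot be told apart in these whole-organ libraries. Summed over 6 hepatocyte markers, of which Alb was the most abundant and none was at 0, the level was 225600, 211300 and 195800 CPM in the water mice at 2680 mg/kg/d and 145400, 175600 and 169100 CPM in the NMN mice. The groups did not overlap, and 1 of the 6 markers, Ttr, was called lower, where 7.08% of all genes were called. The share of reads on no annotated gene was 3.27% to 3.62% in these water mice and 3.90% to 5.06% in the NMN mice. The part of either measure in the Macrod1 value was not tested.

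In the kidney Macrod1 was not called on either schedule. At 1340 mg/kg/d the water mice had 27.6, 20.7, 21.8 and 26.5 CPM and the NMN mice 22.2, 18.1, 23.8 and 21.5 CPM, which overlapped (log2 fold change -0.17, SE 0.12, edgeR adjusted p = 0.714). At 2680 mg/kg/d the values were 29.1, 31.0 and 28.4 CPM in water mice and 26.3, 28.9 and 31.4 CPM in NMN mice, and again the groups overlapped (log2 fold change -0.03, SE 0.09, adjusted p = 0.931). The 95% interval at 2680 mg/kg/d ran from -0.23 to 0.17. The difference between the schedules in the kidney was 0.14 on the log2 scale (SE 0.16, adjusted p = 0.999).

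The genes around Macrod1 on its chromosome were examined in the same livers. The 5 tested genes on one side are Stip1, Fermt3, Trpt1, Nudt22 and Dnajc4, and the 5 on the other are Otub1, Cox8a, Naa40, Mark2 and Spindoc. None of the 10 was called by edgeR at 2680 mg/kg/d, beside 7.08% of all genes. Trpt1, Nudt22 and Dnajc4 had an unadjusted p under 0.05, as did 24.6% of all genes, and DESeq2, fitted to all genes, called 1 of the 10, Trpt1 (adjusted p = 0.0369). Their log2 fold changes ran from -1.48 for Trpt1 (adjusted p = 0.0771), which encodes a tRNA phosphotransferase that uses NAD+, to 0.22 for Mark2. The immediate neighbours were at -0.07 for Stip1 (SE 0.19) and -0.31 for Otub1 (SE 0.155). Flrt1 overlaps Macrod1 without sharing an exon base and was at 13 counts or fewer in these libraries, below the filter on low counts. Macrod1 shared no exon base with another gene of the annotation.

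**Figure D2:**
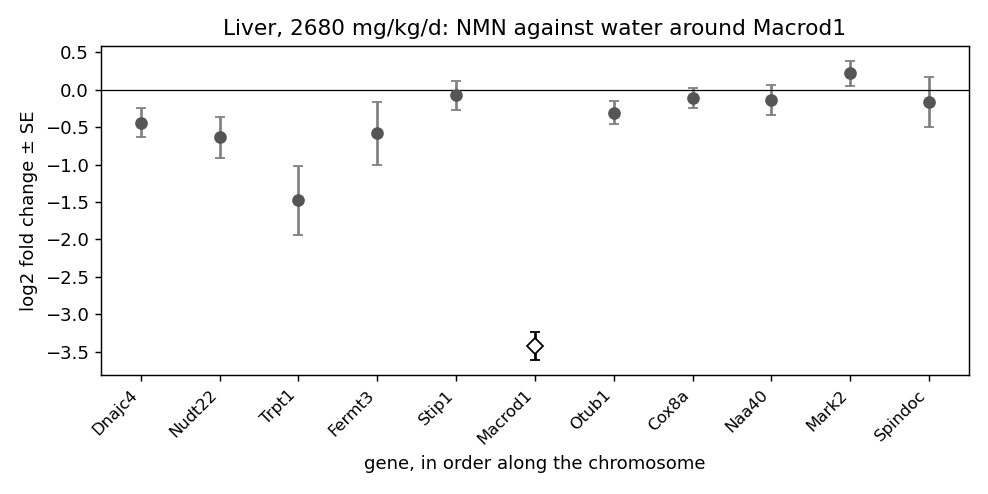
Log2 fold change with its SE, NMN against water in the liver at 2680 mg/kg/d, for Macrod1 (open diamond, a description) and the 5 tested genes on each side in chromosome order, which are evenly spaced here and not to scale. Macrod1 sits at -3.42, while its neighbours lie between -1.48 and 0.22.

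The genes whose log2 CPM followed Macrod1 most closely over the 14 liver libraries were Hyi (hydroxypyruvate isomerase, r = 0.972), Prodh2 (a hydroxyproline dehydrogenase, r = 0.968), 2210016F16Rik (r = 0.958), Cyp2c69 (r = 0.950) and Bphl (a serine hydrolase, r = 0.946), among 12126 genes compared. Their log2 fold changes at 2680 mg/kg/d ran from -1.07 for Bphl to -7.24 for Cyp2c69, and that these lie below 0 follows from the choice, since the low Macrod1 levels of that schedule dominate its spread over the libraries. Within groups, after each group mean was subtracted, their correlations with Macrod1 were 0.659 to 0.830. These values come from the libraries that picked the genes, so they follow in part from the choice. No other liver gene was compared within groups. Over the 14 kidney libraries the closest were Ndufs6 (r = 0.965), Hsbp1 (0.962), Fxyd2 (0.958), Ndufa6 (0.958) and Cuta (0.958), among 13343 genes. Ndufs6 and Ndufa6 encode subunits of mitochondrial complex I and Fxyd2 a subunit of the sodium pump. No gene stood in both lists of 5. The libraries compared share an organ and differ in schedule and depth, and these values are a description without a p.

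Of the 9 other members tested in the liver, 0 were called at 1340 mg/kg/d, where 0.0161% of all tested genes were called, and 1 was called at 2680 mg/kg/d (Parp3, lower), where 7.08% were. An unadjusted p under 0.05 in edgeR was found for 1 member (Adprh) at 1340 mg/kg/d and for 4 (Adprh, Parp1, Parp3 and Parp9) at 2680 mg/kg/d, and DESeq2 called 0 and 1 (Parp3). Of all genes, 6.86% and 24.6% had such a p in these liver comparisons, and 8.94% and 11.1% in those of the kidney. All 10 members passed the filter on low counts in every comparison.

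Adprh, which removes ADP-ribose from arginine, was lower in the NMN livers of both schedules without being called. At 1340 mg/kg/d the water mice had 15.5, 12.1, 9.31 and 11.6 CPM and the NMN mice 6.62, 5.37, 8.25 and 6.07 CPM. At 2680 mg/kg/d the values were 18.7, 9.90 and 10.5 CPM against 5.64, 8.95 and 6.30 CPM. No NMN mouse reached the lowest water mouse of its schedule. The log2 fold changes were -0.87 (SE 0.23, adjusted p = 0.338, exact permutation p = 0.0286, the smallest that 4 against 4 allow) and -0.91 (SE 0.30, adjusted p = 0.0892, exact permutation p = 0.1, the smallest that 3 against 3 allow). Without the filter on low counts, the adjusted p at 2680 mg/kg/d was 0.0204, and without water replicate 1, the highest, the log2 fold change was -0.57.

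Parg encodes the main glycohydrolase of poly(ADP-ribose) chains. Its liver values at 1340 mg/kg/d were 16.5, 16.7, 11.8 and 15.9 CPM in water mice and 16.8, 17.4, 17.2 and 17.9 CPM in NMN mice. The log2 fold change was 0.20 (SE 0.17, adjusted p = 0.867), and 0.10 to 0.24 when single libraries were left out. The groups did not overlap, by 16.66 against 16.76 CPM. At 2680 mg/kg/d they did, with a log2 fold change of 0.15 (SE 0.19, adjusted p = 0.665). Macrod2, the closest relative of Macrod1, was scarce in the liver, with 3.42 to 7.38 CPM over all 14 libraries. Its log2 fold changes there were -0.07 (SE 0.29, adjusted p = 0.975) and -0.30 (SE 0.33, adjusted p = 0.628), and the groups overlapped on both schedules.

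Parp3, a mono-ADP-ribosyltransferase that acts in the repair of DNA breaks, fell in the liver at 2680 mg/kg/d. The water mice had 31.1, 34.4 and 33.1 CPM and the NMN mice 19.1, 24.6 and 15.9 CPM. Every NMN mouse was below every water mouse, and the log2 fold change was -0.73 (SE 0.19, adjusted p = 0.0416), a level 1.66 times lower. The call was lost in 5 of the 6 fits that left out 1 library, each water library and NMN replicates 1 and 3 in turn, in which the adjusted p was 0.0922, 0.143, 0.0954, 0.0699 and 0.167. At 1340 mg/kg/d the values were 24.6, 21.2, 28.5 and 24.4 CPM in water mice and 21.6, 21.4, 22.6 and 14.1 CPM in NMN mice, which overlapped (log2 fold change -0.31, SE 0.18, adjusted p = 0.805). Leaving out single libraries on that schedule gave log2 fold changes of -0.37 to -0.19.

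Parp1 and Parp2, the writers that build chains at DNA breaks, were not called in the liver. Parp1 had 46.6, 46.0 and 39.4 CPM in water mice at 2680 mg/kg/d and 30.3, 32.4 and 32.3 CPM in NMN mice. These groups did not overlap, and the log2 fold change was -0.47 (SE 0.15, adjusted p = 0.0801). On the lower schedule it was -0.35 (SE 0.17, adjusted p = 0.737), with 38.8 to 59.1 CPM in water mice and 29.4 to 40.8 CPM in NMN mice. Parp2 had log2 fold changes of 0.14 (SE 0.23, adjusted p = 0.936) at 1340 mg/kg/d and -0.32 (SE 0.23, adjusted p = 0.434) at 2680 mg/kg/d and overlapping groups.

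Parp9 and Parp14 are macrodomain members of the family that interferons induce, and Parp9 works with the ubiquitin ligase Dtx3l. In the liver at 2680 mg/kg/d Parp9 had 75.0, 66.2 and 58.9 CPM in water mice and 48.5, 54.8 and 38.9 CPM in NMN mice. The groups did not overlap, and the log2 fold change was -0.49 (SE 0.16, adjusted p = 0.0961). Parp9 shares 458 exon bases (9.40% of its exon length) with Dtx3l, and counting ignored strand, so reads within both were counted for neither. Parp14 was at 22.5 to 31.8 CPM in these water mice and 26.1 to 29.5 CPM in the NMN mice (log2 fold change -0.0017, SE 0.18, adjusted p = 0.997). At 1340 mg/kg/d the log2 fold changes were -0.14 for Parp9 (SE 0.13, adjusted p = 0.873) and 0.30 for Parp14 (SE 0.20, adjusted p = 0.827). Tiparp, a mono-ADP-ribosyltransferase induced by the aryl hydrocarbon receptor that feeds back on it, ranged from 5.51 to 15.7 CPM over the liver libraries and had log2 fold changes of 0.11 (SE 0.31, adjusted p = 0.966) and 0.04 (SE 0.27, adjusted p = 0.947).

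Read over the tested members, 5 of 9 had a lower level in the NMN livers at 1340 mg/kg/d and 7 of 9 at 2680 mg/kg/d. Their median log2 fold change was -0.07 and -0.32, beside medians of all tested genes of -0.0027 and 0.0045. Parp14, which is among the 7 at -0.0017, was above 0 by DESeq2 (0.0022). In the livers at 2680 mg/kg/d the summed hepatocyte markers and the share of reads on no gene also moved with NMN, as given for Macrod1. Their part in the members' values was not tested. The NMN and water mice did not overlap for 2 of the 9 at 1340 mg/kg/d (Adprh lower and Parg higher), where 3.52% of all genes did not overlap, and for 4 of the 9 at 2680 mg/kg/d (Adprh, Parp1, Parp3 and Parp9, all lower), where 29.3% did not. No difference between the schedules was called for any of the 9 in the liver, where 0.0746% of genes were called. All 9 differences were below 0, with a median of -0.22 and a smallest adjusted p of 0.672 (Parp9), beside 48.4% of all genes below 0 and a median of 0.016. In that comparison 0 members had an unadjusted p under 0.05 in edgeR, beside 8.6% of all genes, and DESeq2 called 0 members.

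**Figure D3:**
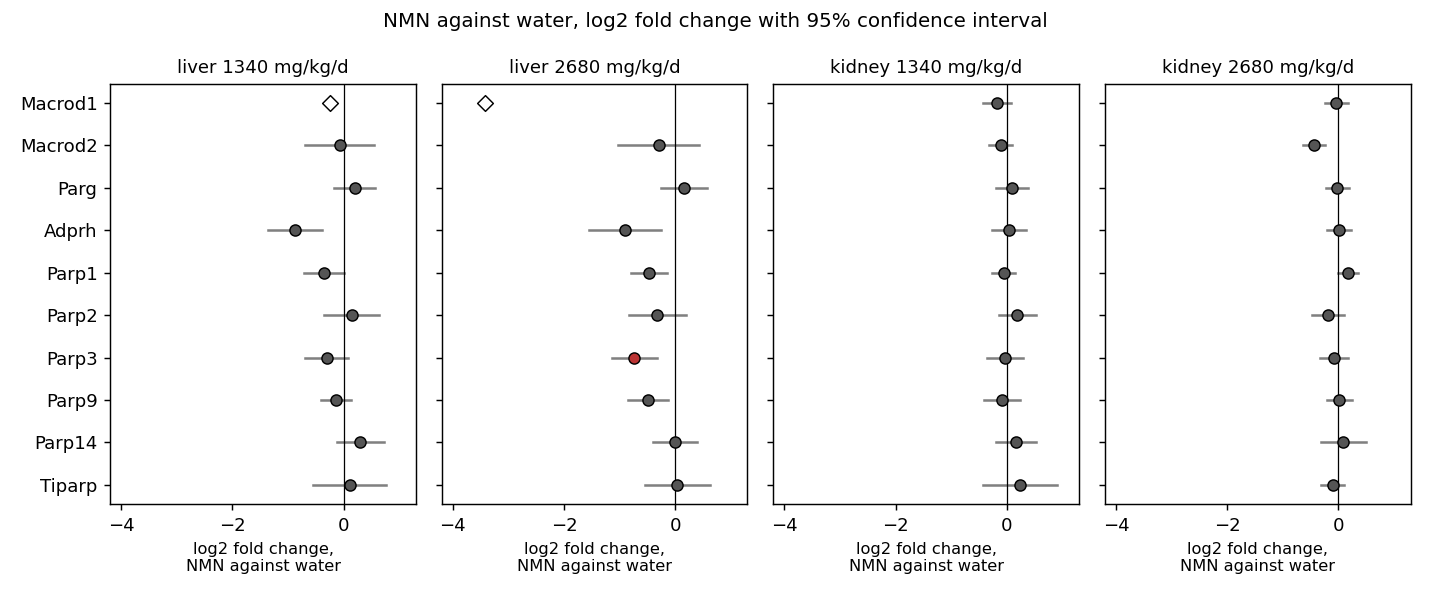
Log2 fold change of the 10 members, NMN against water, with 95% confidence intervals as lines, in 1 panel for each organ and schedule. The open diamonds are the liver values of Macrod1, given as a description without an interval, and the red point is Parp3 in the liver at 2680 mg/kg/d (-0.73), the only called member. All kidney values lie between -0.43 and 0.24.

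**Figure D4:**
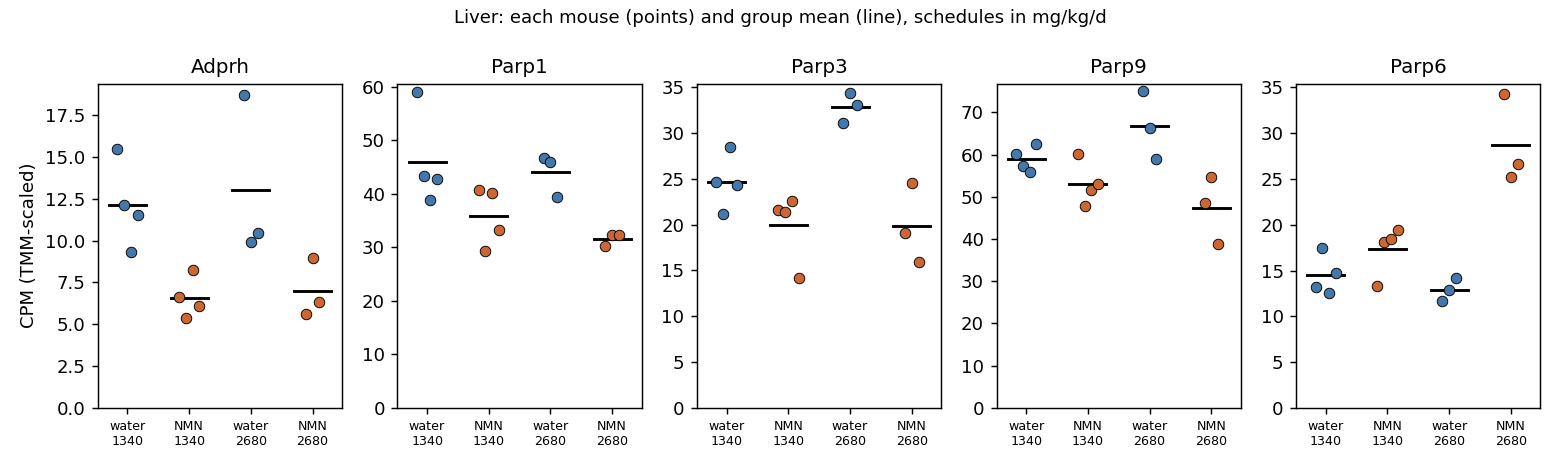
Liver CPM (linear axes from 0, 1 scale per gene) of Adprh, Parp1, Parp3, Parp9 and Parp6 in each mouse, with the group mean as a line, water in blue and NMN in orange. For all 5 genes the NMN and water mice at 2680 mg/kg/d do not overlap, with Parp6 higher (25.3 to 34.3 against 11.7 to 14.2 CPM) and the others lower.

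In the kidney, 0 of the 10 members were called at 1340 mg/kg/d, where 0.12% of all tested genes were, and 0 of 10 at 2680 mg/kg/d, where 0.4% were. At an unadjusted p under 0.05 edgeR gave 0 and 1, and DESeq2 called 0 and 1, both times Macrod2. The largest difference was in Macrod2, which the kidney holds at a high level. At 2680 mg/kg/d the water mice had 112, 119.9 and 120.0 CPM and the NMN mice 80.9, 99.3 and 82.0 CPM. The groups did not overlap, and the log2 fold change was -0.43 (SE 0.09, adjusted p = 0.0736, exact permutation p = 0.1, the smallest that 3 against 3 allow). DESeq2 gave -0.43 with an adjusted p of 0.0066, and edgeR without NMN replicate 2 gave -0.53 with an adjusted p of 0.0293. These NMN kidney libraries were deeper than the water ones, with 22922994 to 33872983 against 16358886 to 18983689 counted reads. The summed level of 5 proximal tubule markers, led by Kap, was 22020 to 23860 CPM in water mice and 15950 to 20540 CPM in NMN mice, without overlap. Of the 5 markers 0 were called, beside 0.4% of all genes, and 4 had an unadjusted p under 0.05, beside 11.1%. The part of depth and of tubule RNA in the difference was not tested. Under the lower schedule Macrod2 values were 133.8, 110.4, 106.6 and 118 CPM against 122.3, 101.2, 96.7 and 115.6 CPM, which overlapped (log2 fold change -0.11, SE 0.10, adjusted p = 0.807).

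The remaining kidney differences were smaller. Over the 10 members at 1340 mg/kg/d the log2 fold changes ran from -0.17 for Macrod1 to 0.24 for Tiparp (SE 0.29, adjusted p = 0.858), and the Tiparp value rested on 1 NMN mouse with 46.4 CPM where the other 3 had 20.3, 19.4 and 19.9 CPM. Without that library it was -0.16. At 2680 mg/kg/d the highest was 0.18 for Parp1 (SE 0.08, adjusted p = 0.457), with 31.1, 32.3 and 35.0 CPM in water mice and 37.9, 38.8 and 35.3 CPM in NMN mice. No member's groups were apart at 1340 mg/kg/d, where 4.97% of genes were, and Macrod2 (lower) and Parp1 (higher) were apart at 2680 mg/kg/d, where 17.2% were. Adprh, low in the NMN livers, stood at 12.02 to 12.49 CPM in water and 12.25 to 12.54 CPM in NMN kidneys at 2680 mg/kg/d (log2 fold change 0.01, 95% interval -0.21 to 0.23). No difference between the schedules was called for any of the 10 in the kidney, where 0.00625% of genes were called. Of the members, Macrod2 had the only unadjusted p under 0.05 (log2 difference -0.33, SE 0.14, edgeR adjusted p = 0.999), beside 4.62% of all genes, and DESeq2 called 0 members.

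Water mice show where the members are expressed without NMN, on each schedule by itself. Beside Macrod1, which is described without a test, edgeR called 6 of the other 9 members between liver and kidney at 1340 mg/kg/d, where 66.9% of all genes were called, and 6 of 9 at 2680 mg/kg/d, where 70.5% were. DESeq2 called 7 (Parp2 added) and 6. On both schedules Parp3, Parp9 and Parp14 were called higher in liver and Macrod2 and Tiparp higher in kidney. The median log2 difference of all genes was -0.10 and -0.17, so each value is read against that shift.

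The levels of the 2 macrodomain hydrolases lay in opposite order in the organs. Macrod1 was 3.01 and 3.33 times higher in liver, with log2 differences of 1.59 (SE 0.14) and 1.74 (SE 0.13), given without a p because the liver values of the water mice also entered the choice of Macrod1. In the liver the 7 water mice had 58.3 to 114.4 CPM and in the kidney 20.7 to 31.0 CPM, without overlap. Macrod2 was 20.7 and 21.4 times lower in liver (log2 differences -4.37 and -4.42, SE 0.19 for both, adjusted p = 2.35e-10 and 4.4e-09), with 3.99 to 7.38 CPM in liver and 106.6 to 133.8 CPM in kidney. In liver libraries the summed level of 5 markers of kidney proximal tubule was 48.2 to 55.2 CPM in water mice at 1340 mg/kg/d and 1.86 to 13.0 CPM at 2680 mg/kg/d, against 19420 to 26500 and 22020 to 23860 CPM in kidney. Kap was the most abundant of these markers except in 1 of those livers, where Lrp2 was. The part of these levels in the Macrod2 difference was not tested.

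Among the writers, Parp9 and Parp14 were higher in liver, by log2 differences of 2.26 and 2.04 for Parp9 (SE 0.12 for both, adjusted p = 1.68e-09 and 7.51e-08) and of 1.67 and 1.48 for Parp14 (SE 0.21 and 0.20, adjusted p = 9.26e-06 and 6.78e-05). Parp3 was also higher, by 0.74 and 0.57 (SE 0.16 and 0.14, adjusted p = 0.00084 and 0.00436). Tiparp was lower in liver, by -1.17 and -1.41 (SE 0.23 and 0.17, adjusted p = 0.000496 and 2.79e-05). Parp1 was called at 2680 mg/kg/d alone (0.45, SE 0.12, adjusted p = 0.00569, against 0.22, SE 0.14 and 0.177 at 1340 mg/kg/d), and Parg at 1340 mg/kg/d alone (-0.44, SE 0.16, adjusted p = 0.0285, against -0.23, SE 0.14 and 0.176). Whether the schedules differ in these organ values was not tested. The Parg call was lost without liver water replicate 3 or any 1 of kidney water replicates 1, 2 and 3, with adjusted p-values of 0.0719, 0.0839, 0.0770 and 0.0702. Parp2 (-0.48, adjusted p = 0.0506, and -0.33, adjusted p = 0.115) and Adprh (-0.11, adjusted p = 0.601, and 0.10, adjusted p = 0.712) were not called by edgeR. The Parp2 difference lay at the threshold at 1340 mg/kg/d, where DESeq2 called it (adjusted p = 0.0435), as did edgeR without any 1 of liver water replicates 1 and 4 and kidney water replicates 1 and 4 (0.0433 to 0.0496). The 95% intervals of Adprh ran from -0.49 to 0.27 and from -0.41 to 0.61.

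Per length of exon, Macrod1 was the most abundant member in both organs. In CPM per kb (SD, 7 water mice of both schedules), the liver level was 67.0 ± 14.3 for Macrod1, then 12.8 ± 1.35 for Parp9, 8.53 ± 1.29 for Parp1 and 7.62 ± 1.34 for Parp3. Adprh followed with 4.22 ± 1.15, Parp14 with 2.98 ± 0.639, Parg with 2.61 ± 0.315, Parp2 with 2.37 ± 0.759, Tiparp with 2.22 ± 0.627 and Macrod2 with 0.534 ± 0.150. Neighbours in this order had overlapping ranges over mice from Parp1 down to Tiparp, while Macrod1, Parp9 and Macrod2 stood apart from the next gene. In the kidney Macrod1 had 21.5 ± 3.10 and Macrod2 11.4 ± 0.864 CPM per kb, each apart from the next, and Parp1 followed with 6.99 ± 0.788, Tiparp with 5.47 ± 0.571 and Parp3 with 4.92 ± 1.29. Adprh (4.33 ± 0.300), Parg (3.38 ± 0.454), Parp2 (3.17 ± 0.984) and Parp9 (2.91 ± 0.462) came next, and Parp14 was lowest at 1.01 ± 0.196. From Parp1 to Parp9 the ranges of neighbours overlapped, except that Adprh (from 4.04) and Parg (to 4.03) did not, and Parp14 stood apart below Parp9. Within a schedule the order shifts among close neighbours. Parp2 in the liver had 1.78 ± 0.241 CPM per kb at 1340 mg/kg/d, below Tiparp (2.23 ± 0.818), and 3.16 ± 0.0951 at 2680 mg/kg/d, above Parp14 and Parg (2.58 ± 0.238). Parp3 in the kidney had 4.04 ± 0.570 and 6.09 ± 0.959 (SD, n = 4 and 3), below Adprh on the lower schedule and above Tiparp on the higher. Macrod1 was highest on both schedules in both organs. Exon lengths come from GENCODE M21, in which Macrod1 (1228 bases) has a newer version than the identifier in the files, so its level per length is approximate.

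**Figure D5:**
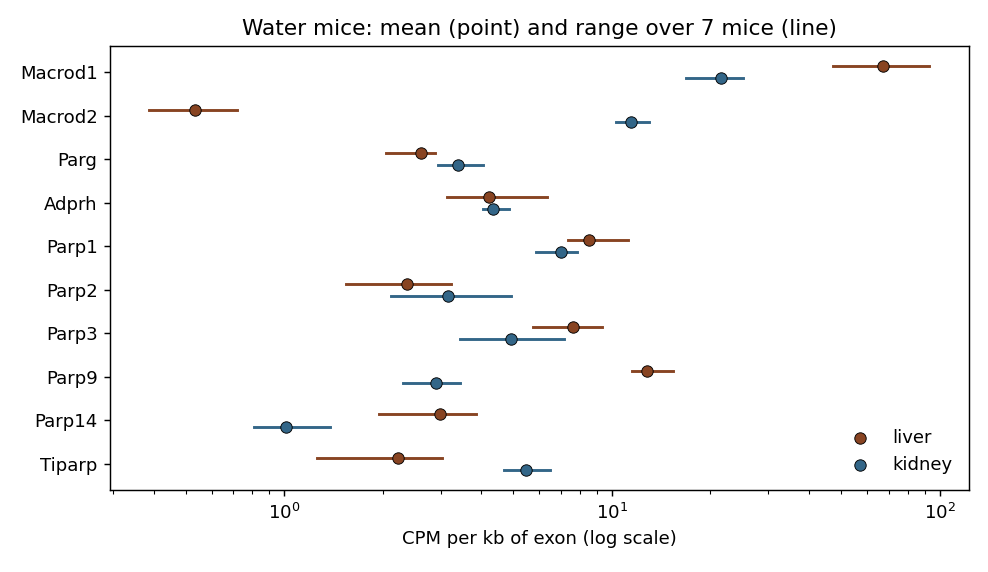
CPM per kb of exon (log axis) of the 10 members in the 7 water mice of both schedules, in liver (brown) and kidney (blue), with the mean as a point and the range over mice as a line. Macrod1 has the highest mean in both organs (67.0 and 21.5), and Macrod2 the widest gap between organs (0.534 in liver and 11.4 in kidney).

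Outside the 10 members, 34 other genes of ADP-ribosylation were examined: 16 other writers, 8 other erasers and ADP-ribose hydrolases, and 10 readers and partners. In the liver at 1340 mg/kg/d 0 of 28 tested were called, and in the kidney 0 of 29 and 0 of 29, beside 0.0161%, 0.12% and 0.4% of all genes. At an unadjusted p under 0.05 edgeR gave 2, 1 and 2, beside 6.86%, 8.94% and 11.1% of all genes. DESeq2 called 0 in all of these 3 comparisons. Higher-schedule livers had 1 of 29 called, beside 7.08% of all genes, and 7 of 29 at an unadjusted p under 0.05, beside 24.6%. The called gene was Parp6, a mono-ADP-ribosyltransferase, which rose from 11.7, 12.8 and 14.2 CPM in water mice to 34.3, 25.3 and 26.6 CPM in NMN mice. The groups did not overlap, and the log2 fold change was 1.16 (SE 0.21, adjusted p = 0.0111), a level 2.24 times higher. Without water replicate 2 the adjusted p was 0.0571. Parp6 at 1340 mg/kg/d had 13.2, 17.5, 12.5 and 14.8 CPM in water mice and 13.4, 18.1, 18.4 and 19.5 CPM in NMN mice, which overlapped (log2 fold change 0.27, SE 0.19, adjusted p = 0.833).

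In the list of readers and partners, which also holds the enzyme Trpt1, Trpt1 had the smallest p in higher-schedule livers, with 5.72, 3.59 and 3.62 CPM in water mice and 1.34, 2.49 and 0.816 CPM in NMN mice. Its log2 fold change was -1.48 (SE 0.46, adjusted p = 0.0771). DESeq2 gave -1.48 with an adjusted p of 0.0369, from 11 to 35 counts in the NMN libraries. Trpt1 shares 7.78% of its exon bases with Fermt3. Rnf146 (0.71, SE 0.28, adjusted p = 0.144), a ubiquitin ligase that reads poly(ADP-ribose), and Xrcc1 (0.50, SE 0.21, adjusted p = 0.169), a DNA repair scaffold, came next. Of the other erasers and hydrolases, Nudt16 had the smallest p (-0.37, SE 0.30, adjusted p = 0.485). In the kidney at 1340 mg/kg/d the smallest p among all 3 lists belonged to Dtx3l, the partner of Parp9 (-0.45, SE 0.18, adjusted p = 0.459). Over the 29 genes tested in liver on the higher schedule, 17 were higher and 12 lower, with a median of 0.11 against 0.0045 over all genes.

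The inducers of some members were followed through other genes they control. Of 20 interferon-stimulated genes, 0 were called in any of the 4 NMN comparisons, with 19 tested in the liver on both schedules and 19 and 20 in the kidney. Their median log2 fold changes were -0.16 and -0.18 in the liver at 1340 and 2680 mg/kg/d, and -0.12 and 0.04 in the kidney. An unadjusted p under 0.05 was found for 1, 2, 0 and 0 of them in edgeR, and DESeq2 called 0 in each. Isg15 had the smallest p in the liver at 1340 mg/kg/d (-0.52, SE 0.21, adjusted p = 0.658), and Irf7 at 2680 mg/kg/d (0.41, SE 0.18, adjusted p = 0.176). Between organs, 13 of 20 and 14 of 19 of these genes were called higher in the liver of water mice, where 30.9% and 31% of all genes were, and 2 and 2 were called lower. Bst2 differed by 4.52 and 5.04 on the log2 scale.

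Of 8 targets of the aryl hydrocarbon receptor, 5 were tested in the liver on both schedules and 8 and 7 in the kidney, and 0 were called by edgeR, with 1, 1, 1 and 3 at an unadjusted p under 0.05. In the liver 3 of 5 and 5 of 5 had a higher level in NMN mice (median log2 fold changes 0.06 and 0.60), and in the kidney 6 of 8 and 6 of 7 (0.10 and 0.20), beside medians of all genes within 0.01 of 0. DESeq2 called 1, Nqo1, in the kidney at 2680 mg/kg/d. Nqo1, a quinone reductase that NRF2 also induces, had the smallest p of the list in each comparison, with log2 fold changes of 0.75 (SE 0.30, adjusted p = 0.67) and 0.65 (SE 0.23, adjusted p = 0.114) in the liver and 0.42 (SE 0.12, adjusted p = 0.254) and 0.61 (SE 0.12, adjusted p = 0.0544) in the kidney. In the kidney at 2680 mg/kg/d its level was 49.9 to 57.0 CPM in water mice and 68.2 to 96.2 CPM in NMN mice, without overlap, and DESeq2 gave an adjusted p of 0.000559. Cyp1a2, a cytochrome P450 and classical target of the receptor, had -0.18 (SE 0.13, adjusted p = 0.846) and 0.15 (SE 0.36, adjusted p = 0.84) in the liver.

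The labelled organs were checked against their markers. Albumin and 5 other hepatocyte markers summed to 102200 to 225600 CPM in liver libraries and to 81.4 to 202.2 CPM in kidney libraries, and proximal tubule markers to 14470 to 26500 CPM in kidney libraries. In the kidney at 1340 mg/kg/d, summed loop of Henle and distal tubule markers were 2746 to 3162 CPM in water mice and 3484 to 3768 CPM in NMN mice, without overlap. An unadjusted p under 0.05 in edgeR was found there for 2 of these 4 markers and 3 of 5 proximal tubule markers (median log2 fold changes 0.23 and -0.31), beside 8.94% of all genes. In both lists 0 were called, beside 0.12% of all genes. The part of these markers in the kidney values was not tested. Of the markers of other liver cell types (Kupffer cell and macrophage, endothelium, stellate cell and fibroblast, cholangiocyte, lymphocyte and neutrophil), 0 were called in the liver comparisons, beside 0.0161% and 7.08% of all genes. The summed levels of these lists overlapped between NMN and water mice on both schedules. On the lower schedule, where 2 of 12449 genes were called in all, 4 of 5 endothelium markers (median log2 fold change 0.52) and 2 of 2 tested neutrophil markers (median 2.03) had an unadjusted p under 0.05, beside 6.86% of all genes. Summed endothelium markers were 106.5 to 161.1 CPM in those water mice and 156.7 to 182 CPM in the NMN mice, and neutrophil markers 0.798 to 2.60 and 1.14 to 16.0 CPM. Their part in the liver values at 1340 mg/kg/d was not tested. The pancreas list had 4 of 5 markers at 0 in those livers. Its remaining gene, Cela1, was called lower in liver on the higher schedule, with 31.2 ± 3.64 CPM in water mice and 6.93 ± 2.18 CPM in NMN mice (SD, n = 3 each). In the liver at 1340 mg/kg/d its groups also did not overlap (25.1 to 49.5 CPM in water mice and 10.01 to 24.39 CPM in NMN mice, log2 fold change -1.31, not called), nor did they in the kidney at 2680 mg/kg/d (33.4 to 40.1 and 26.2 to 31.8 CPM, -0.31, not called).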

How the data were processed

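Per the labels and the article, polyA-selected RNA was sequenced on 2 instruments (which library ran on which is not given in the sources used here), and the authors aligned reads with STAR and made the deposited read counts per gene with HTSeq-count, ignoring strand and keeping reads assigned to 1 gene. The genome build named there is not one in use. The 54446 gene rows carry Ensembl identifiers, and GENCODE M21 held 53229 of them in the same version, 1180 in another version and 37 not. Libraries held 12688324 to 33872983 counts on genes. A further 3.273% to 12.77% of reads fell on no gene, 1.765% to 5.098% on several and 10.06% to 19.95% were not uniquely aligned, and these rows were left out.

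NMN was compared with the water mice of the same schedule and organ, and liver with kidney within water mice, by edgeR 4.0.16 (R 4.3.3): genes were kept by its expression filter, libraries scaled by TMM, and a robust quasi-likelihood test applied with Benjamini-Hochberg adjustment over all genes tested. Differences between schedules were an interaction term. All adjusted p-values in the text are from this test unless DESeq2 (1.42.0) is named. Printed CPM used TMM factors over all 28 libraries, and likeness to Macrod1 was Pearson's r of log2 CPM with a prior count of 2. Exact permutation tests were two-sided. The edgeR and DESeq2 p-values weigh a difference against the spread between the libraries of a group, which both tools estimate in part from other genes.

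The members and lists were chosen with earlier results of these data known. The text names every member for NMN against water in the liver and for liver against kidney. For NMN in the kidney and between schedules it names some members and covers the rest by counts, medians or ranges. From the other lists it names called genes, those with the smallest p and some further genes. Alternatives were DESeq2 and its size factors, other filters, no robust fitting, a replicate block, a shared fit per organ, a stricter threshold and leaving out each library. Those for the other lists were added after the data were seen. Promoter sequence came from RefSeq. Scripts were tested on simulated data.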

Additional observations from a re-analysis of the deposited data

Results flagged for a closer look

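Among 40 groups of 4 libraries (10 genes, 4 groups on the 1340 mg/kg/d schedule), 4 held a library whose distance from its nearest neighbour took up more of the range of its group than Dixon's 95% critical value for 4 values allows. Chance alone flags about 1 in 20 groups. Tiparp in the kidney of NMN replicate 1 was at 46.39 CPM, with the next library at 20.25 CPM (0.967 of the range). Adprh in the kidney of NMN replicate 3 was at 17.38 CPM, with the next at 12.69 CPM (0.893). Parp3 in the liver of NMN replicate 4 was at 14.14 CPM, with the next at 21.4 CPM (0.862), and this is the liver library with the highest share of reads on no gene. Parg in the liver of water replicate 3 was at 11.78 CPM, with the next at 15.86 CPM (0.834).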

How the results depend on the processing

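Of the log2 fold changes recomputed under an alternative, 794 kept their direction and their side of the threshold, 22 passed it, 10 no longer did and 21 changed sign. The 794 include the liver values of Macrod1 under NMN, which have no p. These were counted as kept because they kept their sign and moved by less than the spread between mice. Macrod1 in the liver at 2680 mg/kg/d stayed between -3.51 and -3.29 under every alternative run. The causes of the changes were not tested.

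Parp14 in the liver at 2680 mg/kg/d turned from -0.0017 to 0.0022 by DESeq2, 0.0036 with DESeq2 size factors, 0.0134 with the replicate block and 0.0067 in 1 fit per organ, and Adprh between organs at 2680 mg/kg/d to -0.0026 with at least 10 counts in every library. Leaving out single libraries gave -0.2057 to 0.0887 for Macrod2 and -0.1314 to 0.3071 for Tiparp in the liver at 1340 mg/kg/d, and -0.1384 to 0.1201 for Parp14 and -0.1436 to 0.2156 for Tiparp at 2680 mg/kg/d. In the kidney it gave -0.1602 to 0.3637 for Tiparp and -0.1085 to 0.0174 for Parp1 at 1340 mg/kg/d, and -0.0978 to 0.026 for Macrod1 at 2680 mg/kg/d. Between organs Adprh ran from -0.237 to 0.0052 and from -0.2109 to 0.3158.

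The members called in the liver at 2680 mg/kg/d (1) became 2 without a filter, 0 at an adjusted p under 0.01 with a fold over 2, and 0 to 1 without single libraries. In the kidney at 2680 mg/kg/d (0) they became 1 by DESeq2 or without a filter and 0 to 1 without single libraries, where Macrod2 had adjusted p-values of 0.0011 to 0.129 over the alternatives and 0.0293 to 0.303 without single libraries. The other ADP-ribosylation genes called in the liver at 2680 mg/kg/d (1) became 2 by DESeq2, without a filter or in 1 fit per organ (Parp6 and Trpt1), and 0 to 3 without single libraries. The called aryl hydrocarbon receptor targets (0) became 1 without a filter in the kidney at 1340 mg/kg/d, and at 2680 mg/kg/d 1 by DESeq2, 2 without a filter, 1 with the replicate block and 0 to 1 without single libraries. Over all genes, the called number ran over the alternatives from 2 to 74 (2 in the fit reported) and from 819 to 1785 (883) in the liver, and from 5 to 269 (18) and from 35 to 514 (61) in the kidney, at 1340 and 2680 mg/kg/d. Leaving out single libraries gave 0 to 18, 211 to 1308, 5 to 67 and 3 to 191. Between schedules the ranges over the alternatives were 10 to 98 (10) in liver and 0 to 106 (1) in kidney.

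Deviations from the group means of same-numbered NMN and water libraries correlated at -0.03 to 0.148 and 0.056 to 0.144 in the liver and -0.101 to 0.146 and -0.016 to 0.043 in the kidney, and those of same-numbered liver and kidney libraries of water mice at 0.059 to 0.217 and 0.063 to 0.157. All pairs were above 0 in the liver at 2680 mg/kg/d and between organs. Their means were 0.113 in that liver comparison and 0.13 and 0.099 between organs, beside -0.056, -0.043 and -0.05 for libraries of different numbers. Not every pair was over 0.1 in any comparison, and by that rule, which is no test of pairing, the libraries were not treated as paired. Whether liver and kidney libraries of 1 number come from 1 mouse is not given in the sources used here. The replicate block gave 16, 1153, 75 and 92 called genes for NMN against water, and it turned no call of a member between organs. There Parp2 was also called with at least 10 counts in every library (adjusted p = 0.0151 and 0.044) and without robust fitting at 1340 mg/kg/d (0.0499). Macrod1 aside, leaving out single libraries at 1340 mg/kg/d turned the calls of Parg and Parp2 only.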
